A study of Gallus gallus with 15 samples.

Results

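The genes described here are 7 transcripts of the hen liver that serve egg yolk formation or fell together with those that do. They are the vitellogenins VTG1, VTG2 and VTG3, the very low density lipoprotein component APOV1, the riboflavin-binding protein RBP, and FAM20CL and FABP1. The vitellogenins, APOV1 and RBP were taken by name, and FAM20CL and FABP1 were selected on their read counts, which fell with those of the others in the library metformin 10. All 7 are called yolk precursor genes below as a short name, which for FAM20CL and FABP1 rests on this fall only. All 7 of the 24154 gene rows of the read-count table passed the expression filter, which 14432 rows passed. RNA was taken at 65 weeks of age from the liver of broiler breeders, hens (Gallus gallus) kept to lay the eggs from which meat chickens hatch. Control hens (5 libraries) had 0 mg and treated hens (10 libraries) 75 mg of metformin per kg of body weight in the feed for 40 weeks, starting at 25 weeks of age. Metformin is a glucose-lowering drug given by mouth, and the comparison asks how the liver differed with it.

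In a laying hen, oestrogen from the ovary switches on the genes for yolk precursors in hepatocytes, which express them little or not at all without the hormone. Vitellogenins and triglyceride-rich lipoproteins leave the liver in the blood and are taken up by growing oocytes, where vitellogenin is cut into lipovitellin and phosvitin. APOV1, also called apovitellenin-1, coats yolk-bound lipoprotein particles and protects their lipid from lipoprotein lipase, and RBP carries riboflavin into the egg.

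Libraries held 8023809 to 41041301 reads in genes. Reads assigned to no gene divided them into 3 sets. Their share was 27.8% to 43.5% in a middle set of the 5 controls and metformin 1, 3 and 4. It was 14.6% to 17.5% in a low set of metformin 2 and 5, and 51.5% to 55.1% in a high set of metformin 6 to 10. Both outer sets lacked controls, and in them metformin and set cannot be told apart. All 15 hepatocyte markers were read in the metformin 10 library. Their summed level there was 131439 CPM (reads of a gene relative to the library total, scaled by TMM factors). It was 82705.5 to 143209 CPM in metformin 6 to 9 and 75648 to 101710 CPM in controls. Single markers went both ways in metformin 10. AHSG and CPS1 lay below every other library, while TTR, FGA, FGB, FGG, APOH and C3 lay above every other library. CPS1 was low in all libraries, at 1.74 CPM (19 reads) in metformin 10 and 5.34 to 14.2 CPM elsewhere. Of 8 listed oviduct genes 4 were in the table, none passed the filter, and their sum reached at most 1.04 CPM, with 0 reads in metformin 10. In whole liver, fewer cells of a type and less RNA per cell cannot be told apart.

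The 7 genes together held 4.92% to 9.64% of the reads in genes in control libraries, with a mean of 7.92% ± 1.79 (SD, n = 5). In metformin libraries the share was 8.82% ± 4.66 (SD, n = 10). The highest share, 16.5%, was in metformin 5 and the lowest by far in metformin 10. There 2020 of 9301038 reads came from these genes, a share of 0.0217% (95% Wilson interval 0.0208% to 0.0227%, counting error only). Without metformin 10 the other 9 metformin libraries held 5.10% to 16.5%. The range of those 9 libraries covered most of the control range.

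**Figure D1:**
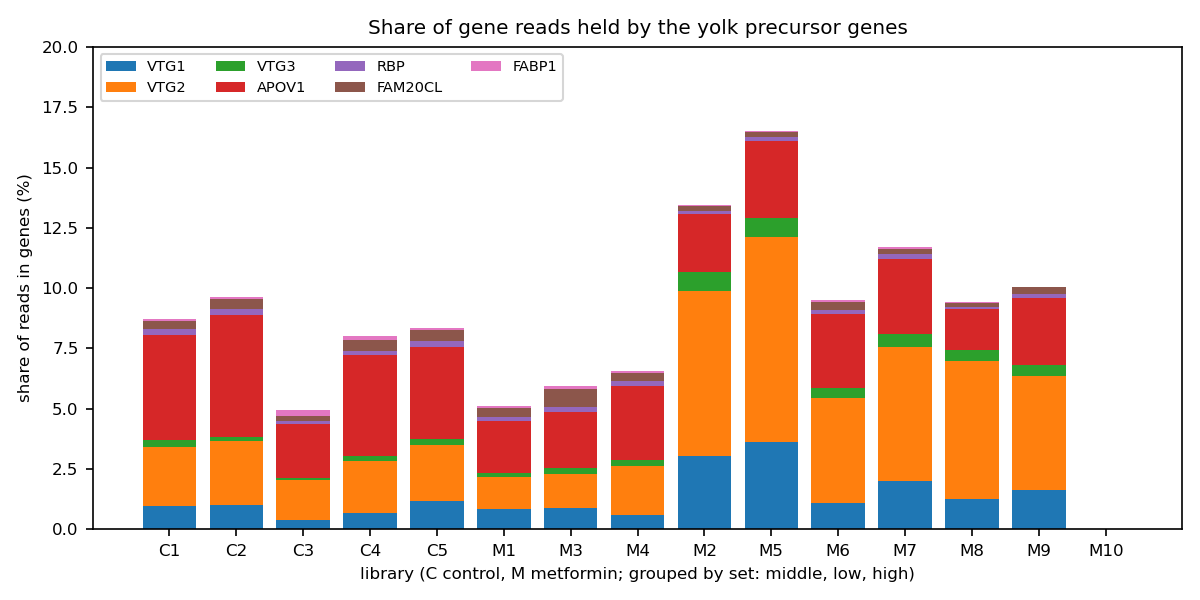
Share of reads in genes held by each yolk precursor gene (stacked bars, percent, axis from 0), by library, ordered by group and set. Control bars reach 4.92% to 9.64%, metformin 5 reaches 16.5%, and the bar of metformin 10, at 0.0217%, is not visible.

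VTG2 is the main vitellogenin of the hen. Its level was 24999, 28572, 19033, 23398 and 23419 CPM in controls 1 to 5, which is 23884 ± 3435 CPM (SD, n = 5). In metformin libraries it ran from 88.4 through a median of 40220.1 to 76778 CPM. The values followed the sets. Metformin 1, 3 and 4 had 15321 to 20677 CPM, metformin 6 to 9 had 38205 to 57033 CPM, and metformin 2 and 5 had 57431 and 76778 CPM. The metformin libraries lay on both sides of the controls, 6 above all of them and 3 below.

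VTG1 stood at 9926, 10940.3, 4479, 7257 and 11888 CPM in controls 1 to 5. Its metformin values ran from 0.458 through a median of 11834 to 32409 CPM, with 5 libraries above all controls and 1 below. VTG3, whose gene lies close to VTG2 with 2 RefSeq genes between them, had 2945, 2044, 1279, 2135 and 2525 CPM in controls. In metformin libraries VTG3 ran from 1.93 through 3911 to 6978 CPM, with 7 libraries above all controls and 1 below. Control 3 had the lowest value of the 5 controls for each of VTG1, VTG2 and VTG3. Summed leukocyte markers were also the highest of all libraries in control 3, at 1576 CPM against at least 842 CPM in controls, and their part in its values was not tested.

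APOV1 had 44996, 54902, 25909, 45377 and 38253 CPM in controls 1 to 5. With metformin it ran from 1.93 through a median of 25845 to 31361 CPM. Control 3 lay inside the metformin range and the other 4 controls above all 10 metformin libraries, of which 5 lay below every control. How many of all tested genes part in this way with 1 control set aside was not counted. By edgeR's quasi-likelihood test without control 3, the log2 fold change of APOV1 with metformin was -0.98 ± 0.89 (SE, adjusted p = 0.441). RBP had 2741, 2504, 1465, 2088 and 2581 CPM in controls and 78.0 to 2392 CPM, with a median of 1542 CPM, in metformin libraries, of which 4 lay below all controls. Control 3 was the lowest control for APOV1 and RBP as well.

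FAM20CL is named for its likeness to FAM20C, a kinase that in mammals phosphorylates secreted proteins in the Golgi. It had 3244, 4386, 2345, 4577 and 4728 CPM in controls, and 2.11 to 9849 CPM with a median of 2274 CPM in metformin libraries. Metformin 3 held the highest value and was the only library above all controls, while 5 lay below them. FABP1, the liver fatty acid-binding protein of the cytosol, is not itself a yolk component. It had 642, 1150.3, 2794, 1906 and 715 CPM in controls, where control 3 was the highest rather than the lowest. Its metformin values ran from 12.4 through 551 to 1524 CPM, and 7 libraries lay below all controls.

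**Figure D2:**
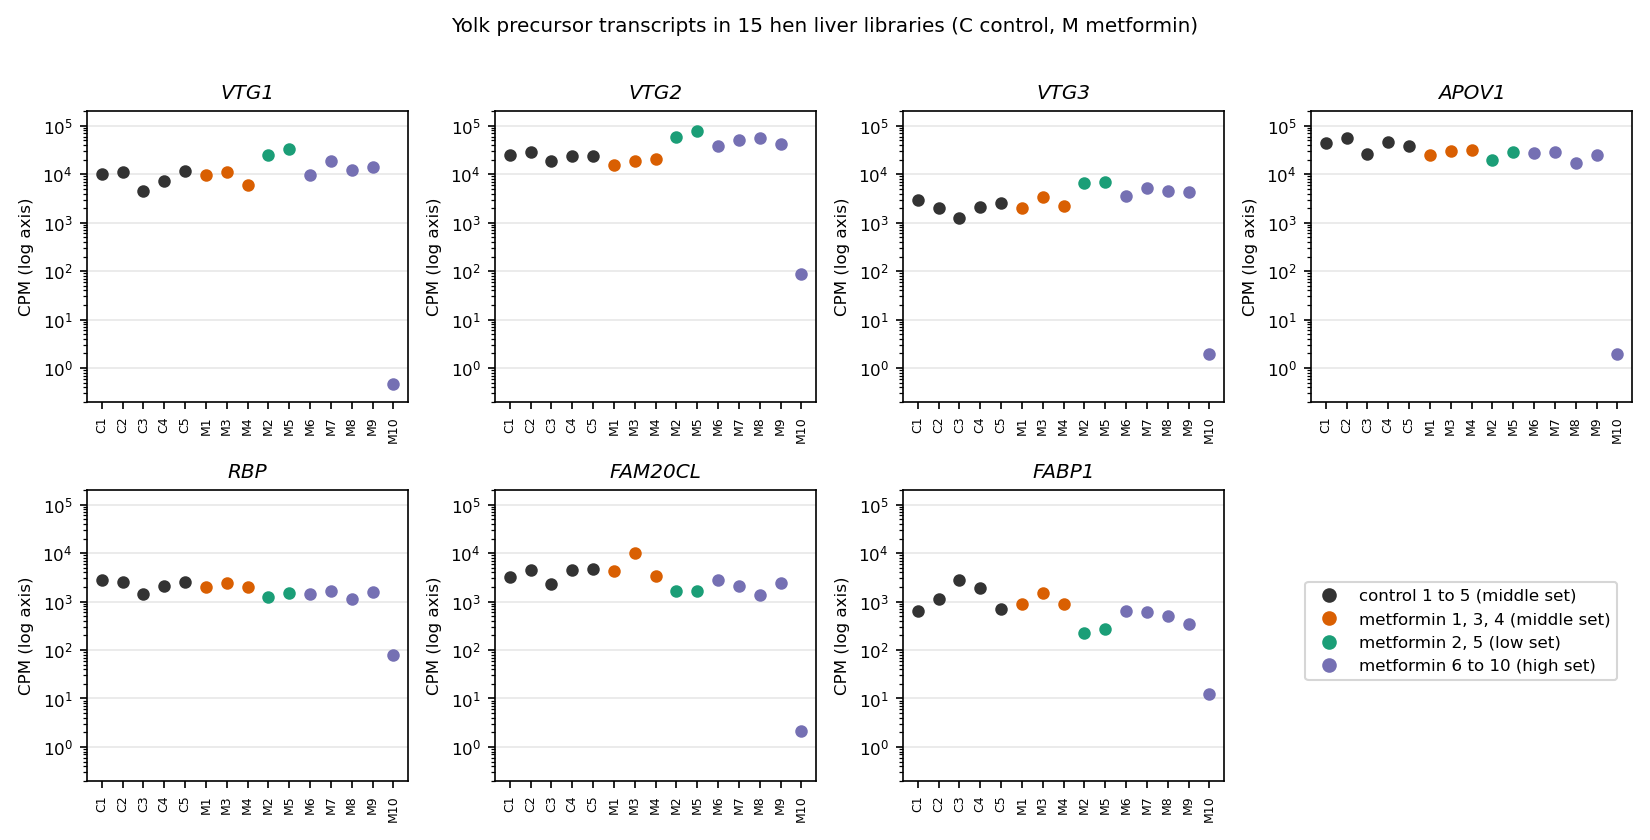
Level of each yolk precursor gene in every library (CPM, log axis; C control, M metformin; colours mark the library sets, 1 point per library). Metformin 10 is the lowest point in every panel, from 0.458 CPM for VTG1 to 88.4 CPM for VTG2.

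Within a library the vitellogenins and APOV1 did not keep one ratio across sets. The ratio of VTG2 to APOV1 was 0.516 to 0.735 in the 5 controls and 0.599 to 0.659 in metformin 1, 3 and 4, so the groups overlapped within the middle set. It was 2.87 in metformin 2 and 2.65 in metformin 5, and 1.42 to 3.34 in metformin 6 to 9. The ratio of VTG1 to VTG2 ran from 0.218 to 0.629 over the 14 libraries other than metformin 10. The low set, at 0.422 and 0.441, lay above metformin 6 to 9, at 0.218 to 0.362, and the middle set, at 0.235 to 0.629, overlapped both. VTG3 to VTG2 ran from 0.0672 to 0.181 in the same 14 libraries.

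**Figure D3:**
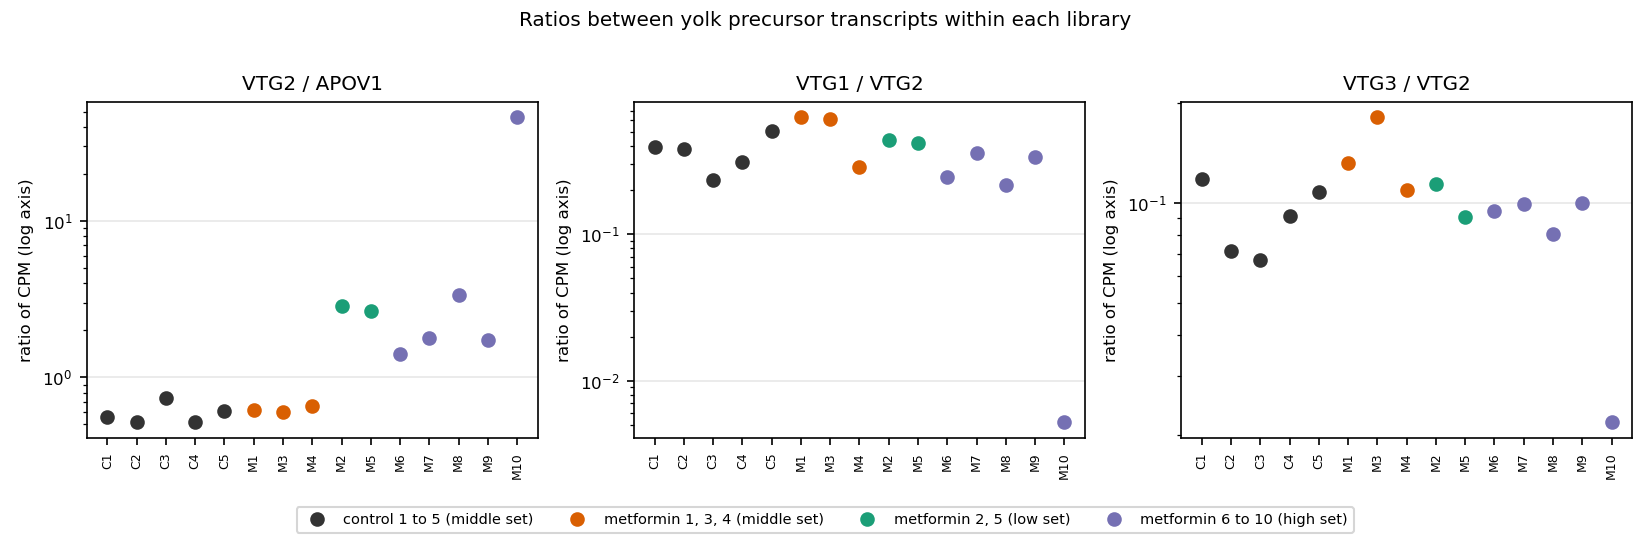
Ratios of CPM between yolk precursor genes within each library (log axes, 1 point per library, colours mark the sets). VTG2 to APOV1 is 0.516 to 0.735 in the 8 libraries of the middle set and at least 1.42 in all others, with 45.9 in metformin 10.

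The set terms of an edgeR quasi-likelihood fit with metformin and set, run without metformin 10, described the same split per gene. Since the outer sets held no control, these terms compared metformin libraries only. They set metformin 2 and 5 (low set) and metformin 6 to 9 (high set) against metformin 1, 3 and 4, not against controls. In the low set VTG2 was higher by 1.98 ± 0.32 (log2, SE, Benjamini-Hochberg adjusted p = 0.000169). VTG1 was higher by 1.78 ± 0.42 (adjusted p = 0.00260) and VTG3 by 1.51 ± 0.33 (adjusted p = 0.00159). FAM20CL and FABP1 were lower there, at -1.73 ± 0.46 (adjusted p = 0.00603) and -2.05 ± 0.54 (adjusted p = 0.00593). APOV1 had -0.15 ± 0.37 (adjusted p = 0.759) and RBP -0.56 ± 0.29 (adjusted p = 0.130). In the high set VTG2 had 1.39 ± 0.28 (adjusted p = 0.00114), VTG3 0.80 ± 0.28 (adjusted p = 0.0341) and FAM20CL -1.39 ± 0.36 (adjusted p = 0.00583), and the other 4 genes did not pass. The low-set term was called for 5 of the 7 genes and for 47.4% of all tested genes (23.7% higher and 23.8% lower), and the high-set term for 3 of the 7 and for 41.1% (19.7% higher and 21.4% lower). Differences between sets were thus common among all genes. Reads of ribosomal RNA genes differed between libraries too, at 0.825% and 1.14% of gene reads in the low set and 8.49% to 28.3% in the middle set. In the high set they were 0.498% in metformin 6 and 8.04% to 9.70% in metformin 7 to 10, which overlapped the middle set. Their part in the result was not tested.

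In metformin 10 all 7 genes lay below every other library. Of all tested genes, 8.90% did so by any margin, 1.18% by at least 2-fold and 0.423% by at least 4-fold. By at least 16-fold 0.111%, or 16 genes, did so, and 6 of those 16 were among the 7, FAM20CL and FABP1 included. In the other direction 9.85% lay above every other library by any margin and 0.0416% by at least 4-fold. FAM20CL and FABP1 were selected for this fall, and the vitellogenins, APOV1 and RBP were taken by name with it already known. These counts are therefore a description. In no other library did more than 1 gene lie 16-fold below all the rest. VTG1 had 5 reads there and lay 9772-fold below the next lowest library (counting interval 4187 to 30095). APOV1 had 21 reads, 8862-fold below the next lowest (5797 to 14316), where the controls had 578566 to 1158354 reads. VTG3, also with 21 reads, was 664-fold below, and FAM20CL with 23 reads 659-fold below.

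The fall was not equally deep for all. VTG2 kept 964 reads and lay 173-fold below the next lowest library (163 to 185), and its ratio to APOV1 was 45.9. RBP kept 851 reads, 14.3-fold below (13.4 to 15.3), and FABP1 135 reads, 17.8-fold below (15.1 to 21.3). The ratio of VTG1 to VTG2 in this library was 0.00519 and that of RBP to APOV1 40.5, against 0.0456 to 0.0824 for the latter in the other 14. Intervals are exact Poisson intervals of the reads in metformin 10, and this is 1 library with no replicate.

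Across all tested genes, metformin 10 was a little less like metformin 6 to 9 than those 4 were like each other. Its Spearman correlation with them was 0.920 to 0.950, and 0.953 to 0.974 among the 4. ALB, plasma albumin, had 40831 CPM in it, inside the range of the others, while TTR, which carries thyroid hormone and retinol-binding protein, had 5074 CPM against at most 2085 CPM elsewhere. AHSG, the fetuin-A of plasma, had 415 CPM against at least 960 CPM elsewhere. Summed markers of stellate cells and fibroblasts were the highest of all libraries there, at 626 CPM against 205 to 477 CPM in the other metformin libraries and 211 to 416 CPM in controls. All 8 of these markers were read in it. Summed leukocyte markers (12 of 12 read) stood at 1049 CPM against 601 to 658 CPM in metformin 6 to 9 and 842 to 1576 CPM in controls. Endothelial markers (8 of 8 read) stood at 247 CPM, against 120 to 142 CPM in metformin 6 to 9 and 202 to 284 CPM in controls. The part of such cells in the result was not tested.

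The receptors through which oestrogen acts were still read in metformin 10. ESR1, an oestrogen receptor, had 17.7 CPM there and 14.9 to 22.0 CPM in metformin 6 to 9. ESR2 had 10.1 CPM against 10.1 to 18.1 CPM, below all other libraries by a 1.01-fold margin (counting interval 0.835 to 1.22), and GPER1, the membrane receptor, 3.85 against 1.70 to 3.71 CPM. HDLBP, or vigilin, which in frogs binds vitellogenin messenger RNA, had 837 CPM against 577 to 980 CPM. Across the 24 tested genes of receptors, coregulators and promoter factors the median log2 difference between metformin 10 and the median of metformin 6 to 9 was -0.03, where all tested genes had 0.02 and the 7 yolk precursor genes -10.01. Of the 24, 1 lay below all other libraries and 4 above, where 8.90% and 9.85% of all tested genes did.

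**Figure D4:**
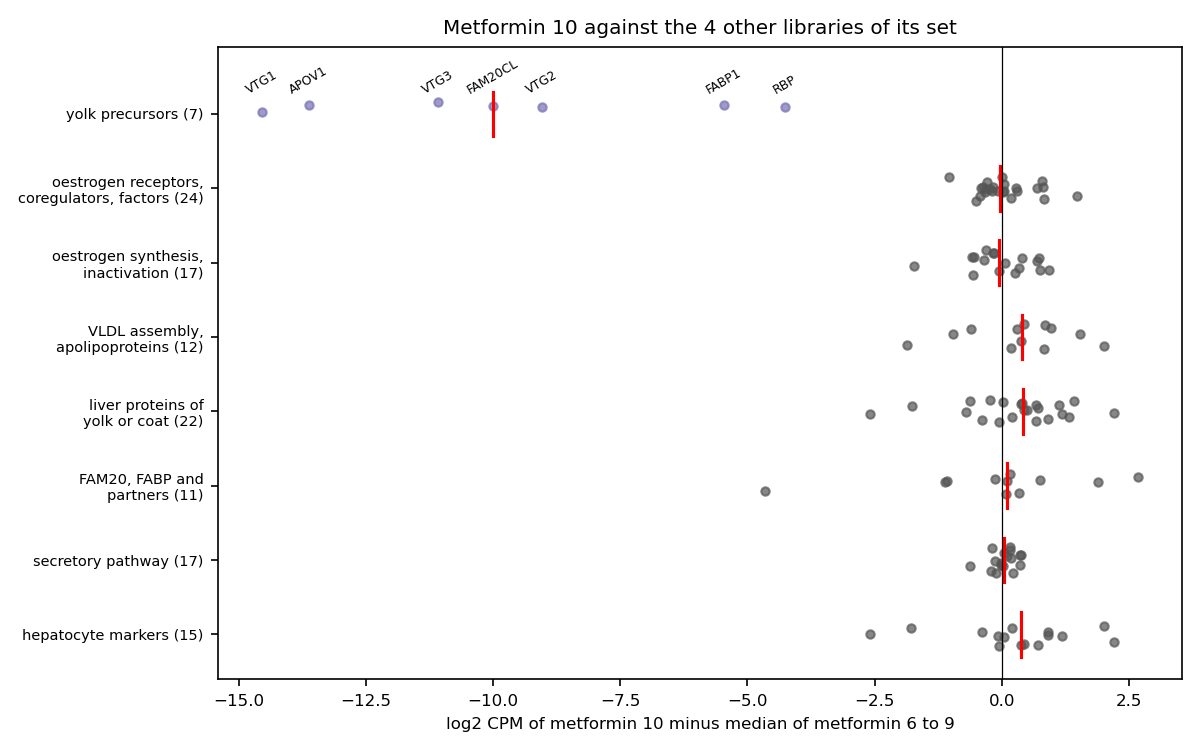
Log2 CPM of metformin 10 minus the median of metformin 6 to 9 for each tested gene (points) of the yolk precursors, the pathway lists and the hepatocyte markers; red bars are medians and numbers in parentheses count genes. The yolk precursors lie between -14.55 (VTG1) and -4.27 (RBP), and the medians of the 6 pathway lists lie between -0.06 and 0.42.

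Other genes of yolk and egg formation, and relatives of FAM20CL and FABP1, mostly stood nearer to metformin 6 to 9. Of 22 tested yolk and egg coat proteins, 3 lay below every other library and 6 above. Of 12 lipoprotein genes 1 lay below and 1 above, and of 11 relatives and partners 2 and 1. Of all tested genes 8.90% and 9.85% did. Some stood above metformin 6 to 9, such as APOA1 at 13416 CPM against 2894 to 4033 CPM and APOC3 at 1975 CPM against 584 to 1134 CPM. APOB, the large structural protein of yolk lipoprotein, had 2852 CPM against 7169 to 14881 CPM in metformin 6 to 9, and ZP1, an egg coat glycoprotein that hen liver makes, 323 against 927 to 1252 CPM. Both were below every other library. MTTP, which loads lipid onto APOB, had 185 CPM and lay above metformin 6 to 9 (59.0 to 152 CPM). MTTPL, MTTP-like by name, went the other way, at 84.0 CPM against 737 to 929 CPM in metformin 6 to 9. It lay below every other library. FAM20A, a relative of FAM20C, had 113 against 184 to 273 CPM, while FAM20C had 85.3 against 70.3 to 105 CPM. FABP3, a fatty acid-binding protein of heart and muscle, had 0.733 CPM against at least 3.85 CPM elsewhere. Its log2 difference from the median of metformin 6 to 9 was -4.65, a deeper fall than that of RBP (-4.27).

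Levels of the 7 genes were then compared across libraries, as log2 CPM centred on the set means. With metformin 10 included, Pearson's r between pairs of the 7 ran from 0.839 to 0.997, and this rests on that library, since centring also lifts the other libraries of its set. Without it, over 14 libraries, VTG1 had r = 0.75 with VTG3, 0.81 with RBP and 0.34 with VTG2. VTG2 went with APOV1 (r = 0.61), and RBP with APOV1 (r = 0.74). FABP1 had r = -0.51 with VTG1 and -0.54 with RBP. FAM20CL had 0.48 with VTG1, 0.52 with VTG3, 0.54 with RBP and 0.23 with APOV1, but -0.28 with VTG2 and -0.03 with FABP1. By rank (Spearman) FAM20CL had 0.31 with VTG1, 0.002 with VTG3, 0.37 with RBP and 0.27 with APOV1. In the 8 libraries of the middle set alone VTG2 and APOV1 had r = 0.94, VTG1 and RBP 0.90, and VTG1 and VTG2 0.24. These are descriptions over libraries that share depth and set differences. No test was made, because the genes were chosen with their joint fall in metformin 10 known.

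The non-member genes most like the mean of the vitellogenins over all 15 libraries, among 8472 genes with an average log2 CPM of at least 3, were CTSEAL, PDE11A, ADAMTS19, MBOAT2 and MTTPL, with r from 0.97 to 0.99. CTSEAL, a cathepsin E-A-like protease by name, had 167 CPM in metformin 10 and 1540 to 2465 CPM in all others. PDE11A, a cyclic nucleotide phosphodiesterase, had 2 reads or 0.183 CPM there and 116 to 337 CPM elsewhere, a ratio of 634 to the next lowest (175 to 5232). MBOAT2, a lysophospholipid acyltransferase, had 6.69 against 84.4 to 441 CPM, ADAMTS19, a secreted metalloprotease, 1.10 against 9.01 to 40.2 CPM, and MTTPL 84.0 against 495 to 1178 CPM. Without metformin 10 their r fell to 0.56, 0.10, 0.55, 0.25 and 0.59 in the order first named. The least like genes were TMEM199, VPS36 and NRP1, with r of -0.88, -0.86 and -0.86. These values rested on metformin 10 too, and without it they were -0.30, 0.09 and 0.11. TMEM199, whose RefSeq span overlaps SEBOX, had 329 CPM in metformin 10 and at most 83.8 CPM elsewhere.

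None of the 7 genes passed the comparison of metformin with control. By edgeR's quasi-likelihood test over all 15 libraries, 18.2% of tested genes were called, 12.5% higher and 5.73% lower. The vitellogenins had log2 fold changes of 0.65 ± 0.94 for VTG1 (SE, adjusted p = 0.621), 0.66 ± 0.75 for VTG2 (adjusted p = 0.521) and 0.82 ± 0.80 for VTG3 (adjusted p = 0.448). APOV1 had -0.85 ± 0.82 (adjusted p = 0.448), RBP -0.60 ± 0.44 (adjusted p = 0.318), FAM20CL -0.38 ± 0.79 (adjusted p = 0.734) and FABP1 -1.29 ± 0.62 (adjusted p = 0.134).

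Leaving out metformin 10 narrowed the errors, and still 0 of 7 passed where 11.8% of tested genes were called by edgeR, 8.46% higher and 3.30% lower. Of the 7, 4 then had an unadjusted p under 0.05, as did 4792 of the 13895 genes tested. VTG3 came nearest at 1.03 ± 0.34 (adjusted p = 0.0554), above all controls in 7 of 9 libraries. APOV1 had -0.65 ± 0.25 (adjusted p = 0.0884), FABP1 -1.10 ± 0.43 (adjusted p = 0.0932), VTG2 0.87 ± 0.40 (adjusted p = 0.137) and VTG1 0.86 ± 0.41 (adjusted p = 0.152). RBP and FAM20CL had -0.42 and -0.20.

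With the set as a covariate and without metformin 10, the difference came from the middle set, where 5 controls stand beside metformin 1, 3 and 4. None of the 7 passed there, where 0.0648% of tested genes did, 0.0504% higher and 0.0144% lower. VTG1 had 0.03 ± 0.34, VTG2 -0.38 ± 0.26, VTG3 0.23 ± 0.26 and APOV1 -0.52 ± 0.30 (adjusted p = 0.987, 0.614, 0.785 and 0.529). RBP had -0.08 ± 0.23, FAM20CL 0.61 ± 0.34 and FABP1 -0.36 ± 0.41 (adjusted p = 0.934, 0.503 and 0.779). These values were nearer 0 than in the fit that left out metformin 10 without the set term, except that of FAM20CL, which was farther from it. For VTG2 and FAM20CL the sign was opposite to that over all libraries. The approximate 95% interval taken from the SE was -0.90 to 0.14 for VTG2 and -0.05 to 1.28 for FAM20CL. With metformin 10 kept in, none of the 7 passed either, where 0.0346% did, 0.0277% higher and 0.00693% lower. In a fit of the middle set alone 0.00734% of tested genes passed, all lower, and again none of the 7.

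**Figure D5:**
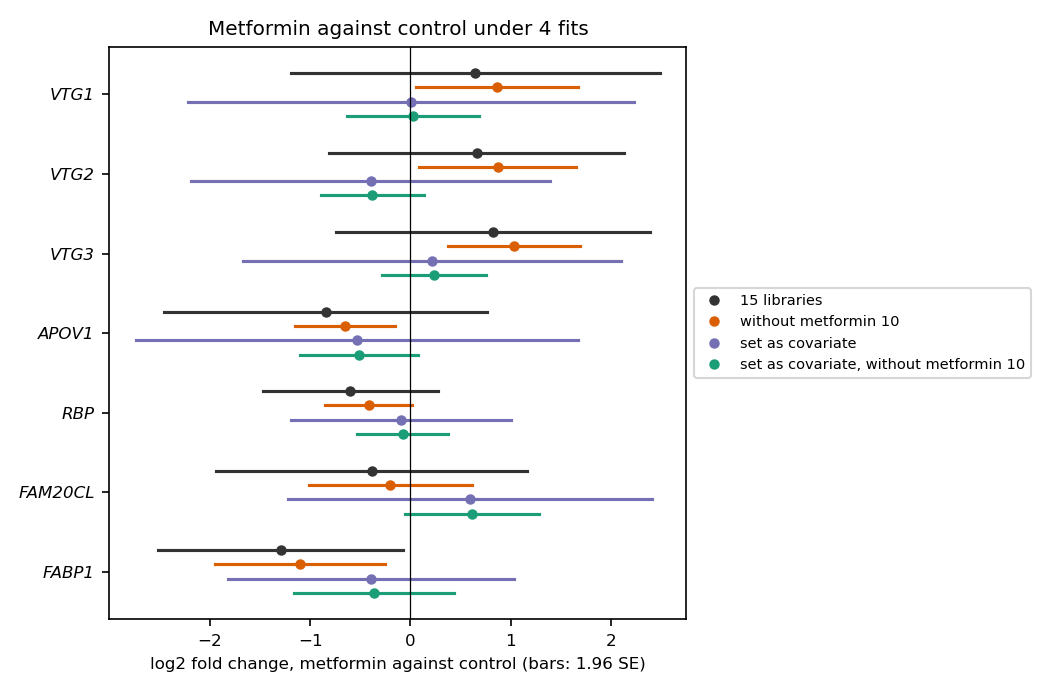
Log2 fold change of each yolk precursor gene, metformin against control (points), in 4 fits. Bars are approximate 95% intervals taken from the SE and not from the test, so they can be too narrow. Bars are widest in the fits that hold metformin 10, and the set as a covariate moves VTG2 from 0.66 to -0.40 and FAM20CL from -0.38 to 0.59.

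Of 24 tested genes of oestrogen receptors, coregulators and factors of the vitellogenin and APOV1 promoters, 10 rose and 1 fell with metformin over all libraries, where 12.5% and 5.73% of all tested genes did. Without metformin 10, 9 rose and 0 fell, where 8.46% and 3.30% of all tested genes did. With the set as a covariate (set-adjusted) 0 passed, against 4 higher and 1 lower of all tested genes, and without control 5 no gene of the whole table passed. The median log2 fold change of the 24 was 0.67 over all libraries and 0.15 with the set as a covariate, against 0.03 and -0.03 over all tested genes. ESR1 rose from 5.31 ± 1.26 CPM (SD, n = 5) to 15.4 ± 5.89 CPM (SD, n = 10), by 1.54 ± 0.32 (log2, SE, edgeR adjusted p = 0.0214, 9 of 10 libraries above all controls), and had 0.55 ± 0.24 with the set as a covariate (adjusted p = 0.396). ESR2, which stood above ESR1 in controls, had 22.6 ± 7.65 CPM there (SD, n = 5) and 14.2 ± 3.32 CPM with metformin (SD, n = 10). It fell by 0.67 on the log2 scale (edgeR adjusted p = 0.0424), with -0.42 after set adjustment (adjusted p = 0.594). The coactivators NCOA1 and NCOA3 rose by 1.00 and 1.38, with 0.44 and 0.65 set-adjusted. TEF, the chicken VBP that binds the VTG2 promoter, had 1.66 (adjusted p = 0.0626), against -0.55 when adjusted for set.

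Of 17 genes of oestrogen synthesis, inactivation and transport 0 rose and 1 fell, where 12.5% and 5.73% of all tested genes did. The one that fell was SULT1B1, a sulfotransferase, with 83.6 ± 9.34 CPM in controls (SD, n = 5) and 38.5 ± 11.1 CPM with metformin (SD, n = 10). It fell by 1.12 in log2 terms (adjusted p = 0.0180). All 10 metformin libraries were below the lowest control, as for 1.05% of tested genes. SULT1B1 had -0.81 ± 0.20 with the set as a covariate (adjusted p = 0.133). The list's median was 0.06, and -0.01 set-adjusted.

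Of 12 genes of lipoprotein assembly and other apolipoproteins 2 rose and 2 fell, where 12.5% and 5.73% of all tested genes did. MTTP rose by 3.22 (adjusted p = 0.0273) and PDIA4, a disulfide isomerase, by 1.11 (adjusted p = 0.0398), with 0.07 and -0.10 set-adjusted. MTTP stood at 13.1 ± 6.47 CPM in controls (SD, n = 5). MTTPL, outside the list, stood at 740 ± 167 CPM there (SD, n = 5) and had -0.0015 (edgeR adjusted p = 0.998). APOA4 fell by 1.97 and APOC3 by 1.58 on the log2 scale (adjusted p = 0.0180 and 0.0269), with -1.37 and -0.89 set-adjusted, neither past the threshold. APOB, with control libraries at 5372 ± 897 CPM (SD, n = 5), had 1.02 (adjusted p = 0.116), or 0.05 once the set was a covariate. The list's median was 0.34, and -0.19 set-adjusted.

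Of 22 genes listed as liver proteins carried into yolk or egg coat 2 rose and 2 fell, where 12.5% and 5.73% of all tested genes did. A2M, alpha-2-macroglobulin, rose by 5.19 (adjusted p = 0.0249), with -0.49 after set adjustment. The row RBP4, which RefSeq also calls RBP4B, passed as higher (adjusted p = 0.0461) at no more than 0.0470 CPM in controls and 1.70 CPM with metformin, so its fold is not given. AMBP, a plasma protease inhibitor precursor, fell by 0.71 on the log2 scale (adjusted p = 0.0386) and had -0.77 set-adjusted. AVD, which the list included although avidin is an egg-white protein, fell by 2.64 (adjusted p = 0.0401). This rested on control 3 with 50.1 CPM, and without that library AVD had 0.42. ZP1 had -0.84 (adjusted p = 0.118), or -0.05 with the set. The list's median was 0.19, and -0.48 set-adjusted.

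Of 11 relatives and partners of FAM20CL and FABP1, 2 rose and 0 fell, where 12.5% and 5.73% of all tested genes did. FAM20C rose by 0.77 (adjusted p = 0.0294) and SCP2, a sterol carrier, by 1.88 (adjusted p = 0.0428), with 0.28 and -0.71 set-adjusted. The list's median was -0.29, and -0.08 set-adjusted. Of 17 genes of the secretory pathway, SEC24D, a coat protein of vesicles leaving the endoplasmic reticulum, rose by 0.63 (adjusted p = 0.0293) and CREB3L3, a liver transcription factor of that compartment, fell by 1.42 (adjusted p = 0.0251). Their set-adjusted values were 0.53 and -0.63. Thus 1 of the 17 rose and 1 fell, against the same 12.5% and 5.73% of all tested genes. The chaperone HSPA5 had 0.32 (adjusted p = 0.266), and the list's median was 0.31, and -0.31 set-adjusted. Without metformin 10, 8.46% of all tested genes rose and 3.30% fell. In that fit 1 rose and 3 fell among the lipoprotein genes. Counts were 1 and 0 both among the yolk and egg coat proteins and among the relatives of FAM20CL and FABP1. In the secretory pathway 1 rose and 1 fell, and in oestrogen synthesis 0 and 1. In every one of the 6 lists 0 genes passed with the set as a covariate, with or without metformin 10. Of all tested genes 0.0346% and 0.0648% passed in these fits.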

How the data were processed

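Read counts per gene were deposited by the authors as 1 table of 15 columns. The submitters' processing notes name the tools STAR 2.7.11b, HTSeq 0.12.3, FastQC 0.12.0 and Trim Galore 0.6.4 and the builds GRCg6a and galGal6. Strand setting and annotation: not given in the sources used here. A stranded mRNA kit was used on 200 ng of RNA, per the labels' protocols, which give 45 hens per treatment group. The labels do not tie libraries to hens, and p-values then reflect only how these samples vary, which may be technical. The 5 closing rows of reads outside the 24154 gene rows were not counted in library sizes and not tested, and 14.6% to 55.1% of a library's reads had no gene. Every pair of libraries differed beyond sampling noise in the 2000 genes with most reads (smallest chi-square per degree of freedom 90.6).

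Counts were fitted with edgeR 4.0.16 in R 4.3.3 (quasi-likelihood test, TMM factors, default expression filter, Benjamini-Hochberg adjustment over all tested genes, called under 0.05). CPM is scaled by the TMM library size, and log2 CPM has a prior count of 2. Library sets were split at gaps of over 5 percentage points in the share of reads in no gene. Alternatives were DESeq2 1.42.0, limma 3.58.1 voom with quality weights, other factors and filters, the replicate number, the set, and each library left out. The calculations were tested on simulated data. Folds of a gene with no reads in metformin 10 were taken against 3 reads.

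The members, the lists and the tests were chosen with earlier results of these data known. Named genes are the members, up to 4 called genes with the smallest p of each list (2 where none was called), ESR1, ESR2, FAM20C, APOB, RBP4, ZP1 and TEF in any case, and the 5 most and 3 least like the vitellogenins; FABP10A was not matched. A gene that this rule names is not reported here. Other genes quoted for metformin 10 (ALB, TTR, AHSG, CPS1, FGA, FGB, FGG, APOH, C3, GPER1, HDLBP, FAM20A, FABP3, FABP7, APOA1) and HSPA5 were chosen after their values were seen. All 7 members matched RefSeq of GRCg7b by symbol, used for names and neighbours only, so no coordinates are given. There, APOV1 overlaps ILDR1 and RBP overlaps MAST2, which had 11622 and 25021 reads in all libraries together.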

Additional observations from a re-analysis of the deposited data

Results flagged for a closer look

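Within each group, a library was marked where its distance to the next value on the log2 scale took a large part of the group's range (Dixon's ratio above 0.71 for 5 libraries and 0.466 for 10). Of 74 groups of values examined 20 were marked. Chance alone marks about 1 in 20, but the count cannot be read against that, because many of these genes were chosen for their values in metformin 10.

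Metformin 10 was the lowest of the metformin libraries in every yolk precursor gene, with ratios of 0.846 for VTG1, 0.762 for VTG2, 0.848 for VTG3, 0.937 for APOV1, 0.777 for RBP, 0.767 for FAM20CL and 0.598 for FABP1. FAM20CL and FABP1 were selected for this fall, and the vitellogenins, APOV1 and RBP were taken by name with it already known. All these marks are therefore a description. It was also the lowest for their summed share of gene reads (0.823), for CTSEAL (0.827), PDE11A (0.850), MTTPL (0.672), MBOAT2 (0.604) and ADAMTS19 (0.577). These 5 genes were picked for their likeness to the vitellogenins, which rests on the same library, and their marks follow from that choice.

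Among controls, control 3 was the lowest for the summed share of the yolk precursor genes, at 4.92% (ratio 0.723), and for APOB, at 3776 CPM (0.904). It was the highest control for ZP1, at 4241 CPM (0.766), and for AVD, at 50.1 CPM (0.743). NRP1 was highest in control 4 (0.909), SEC24D in control 1 (0.812), and RBP4 in control 5 (1), where it had its only control reads.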

How the results depend on the processing

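None of the 7 yolk precursor genes passed the threshold under any alternative run. Of 175 values of these genes under alternatives, 9 turned in sign. With the set as a covariate, in the middle set alone, and with the set as a covariate without metformin 10, VTG2 had -0.40, -0.38 and -0.38 and FAM20CL 0.59, 0.61 and 0.61. With limma voom and quality weights VTG1 had -0.81, VTG2 -0.0013 and VTG3 -0.074. Leaving out each library in turn, ranges were 0.46 to 0.86 for VTG1, 0.52 to 0.87 for VTG2, 0.68 to 1.03 for VTG3, -0.98 to -0.65 for APOV1, -0.73 to -0.42 for RBP, -0.82 to -0.20 for FAM20CL and -1.57 to -0.91 for FABP1. The share of gene reads without ribosomal RNA genes moved by less than the SD.

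Counts of all called genes were far less stable. They were 1805 higher and 827 lower, and 3034 and 1253 with DESeq2, 3323 and 4001 with limma voom, 4 and 1 with the set as a covariate, 7 and 2 with it and without metformin 10, 0 and 1 in the middle set (1390 with an unadjusted p under 0.05), and 0 to 3011 and 0 to 2293 with 1 library left out, 0 and 0 being without control 5. Leaving out control 2 gave 2 higher and 4 lower, and leaving out control 4 gave 16 and 39. With the replicate number as a block 0 and 0 genes were called by edgeR (1704 with an unadjusted p under 0.05). Metformin 6 to 10 share no number with a control, so the metformin difference in this fit came from numbers 1 to 5 of both groups. Same-numbered libraries had correlations of -0.04 to 0.07. These show no pairing but cannot exclude one, since metformin 1 to 5 belong to different sets. The replicate block gave MTTPL 0.057, RBP4 -0.41 and TMEM199 -0.67, opposite in sign to the values over all libraries. These rest on fewer libraries, since metformin 6 to 10 did not enter the difference.

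Of other named genes, these turned in sign with the set as a covariate, in the middle set, and with the set without metformin 10: A2M (-0.49, -0.46, -0.45), ADAMTS19 (-0.33, -0.32, -0.31), MBOAT2 (-0.033, -0.012, -0.011), NRP1 (-0.28, -0.26, -0.26), PDIA4 (-0.10, -0.076, -0.074), SCP2 (-0.71, -0.69, -0.69), TEF (-0.55, -0.54, -0.53) and TMEM199 (-0.48, -0.46, -0.45). RBP4 had -1.29 with the set as a covariate. PDE11A had -0.66 with limma voom. MTTPL, at -0.0015, had 0.047 with RLE factors, 0.0024 with the CPM filter, 0.047 with DESeq2 and -0.10 to 0.18 with 1 library left out, and AVD had -2.95 to 0.42. Of the 5 genes most like the vitellogenins, 3 were shared without centring and 0 without metformin 10. Among values of the other named genes under alternatives, 179 kept the sign but lost the call, 11 kept the sign and gained it, and 44 turned in sign. The cause of these turns was not tested.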

Other observations

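Genes other than the yolk precursors also lay at least 8-fold below every other library in metformin 10. RNF186, a membrane ubiquitin ligase, had 0.733 CPM against at least 20.2 CPM, PACSIN1, a protein of membrane curvature, 1.47 against 33.7 CPM, and WFDC8 35.0 against 575 CPM. Above every other library by at least 4-fold were 6 genes. Among them LPL, lipoprotein lipase, had 11.7 CPM against at most 1.51 CPM elsewhere, and ACSL6, an acyl-CoA synthetase, 49.4 against 9.19 CPM. These genes were chosen after their values were seen, in 1 library, and carry no test.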
